A study of Mus musculus with 23 samples.

Results

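The clustered protocadherins were read from the 24 of 39017 genes in the mouse count tables whose symbols name an alpha, beta or gamma member of that family. They were 1 alpha gene, 22 beta genes (Pcdhb1 to Pcdhb22) and 1 gamma gene. Levels were measured by RNA sequencing of ribosomal RNA-depleted total RNA from 23 libraries in 8 groups of C57BL/6 mouse brain cells. Genes had been delivered into the embryonic cortex by in utero electroporation with a piggyBac transposon, and GFP-positive cells were sorted and expanded. Preneoplastic cells, labelled neural progenitor cells, were taken 72 h after delivery (15 libraries), and tumour cells at 5 to 9 months (8 libraries). EV ctl (n = 2) is labelled wild type and EV-PDGFRA (n = 3) overexpressed Pdgfra. WT-AP (n = 4) overexpressed wild-type histone H3.3 with CRISPR/Cas9 loss of Trp53 and an Atrx hairpin. K27M-AP (n = 4) carried H3.3 with the K27M mutation in place of the wild-type histone, and K27M-APP (n = 2) had Pdgfra overexpression added. The tumour groups were K27M-AP T (n = 3), K27M-APP T (n = 4) and K27M-P T (n = 1), the last with mutant H3.3 and Trp53 loss but no Atrx hairpin. All 18 libraries outside the vector groups EV ctl and EV-PDGFRA therefore share Trp53 loss and a delivered H3.3.

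Clustered protocadherins are cell surface adhesion proteins of the nervous system, encoded in tandem arrays. In the alpha and gamma arrays each variable first exon has its own promoter and is spliced to constant exons that the whole array shares, whereas each beta gene is a single exon with its own promoter. Individual neurons choose different sets of these promoters, with the help of CTCF and cohesin, and the proteins bind identical copies on other cells, which lets a neuron tell its own branches from those of its neighbours.

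What each row can show differs between the arrays. GENCODE M21 (GRCm38) lists 14 alpha, 22 beta and 22 gamma genes, and 1, 22 and 1 of their identifiers were in the tables. The alpha row, named Pcdha2 (ENSMUSG00000007440), bears the identifier that M21 gives to Pcdha11, at chr18:37005203-37187657 on the plus strand. The gamma row, named Pcdhga9 (ENSMUSG00000023036), bears the identifier of Pcdhgc4, at chr18:37815079-37841873 on the plus strand. The annotation used for counting is not given in the sources used here, so these 2 rows may pool reads of several isoforms, or hold part of an array, and no alpha or gamma isoform is read from them. The C-type isoforms Pcdhac1, Pcdhac2, Pcdhgc3, Pcdhgc4 and Pcdhgc5 had no row of their own. The beta genes lie in number order between chr18:37264938 and 37524479, each with its own row, and are similar in sequence. Between 0% and 11.99% of the 50-base windows of a beta gene also occurred in another member, the most in Pcdhb12, and Pcdhb21 overlaps Pcdhb22, so their counts are uncertain where reads could be split.

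Total counts were 37300947 to 68642582 per library, and levels are given as CPM, the count relative to the library total after TMM scaling. No label says whether the replicates of a group came from separate animals or cultures, so p-values measure only the spread between these samples, which may be technical. Fewer expressing cells and less RNA per cell cannot be told apart in such libraries. The 8 neural progenitor markers summed to 2363 to 11217 CPM and were present in every library. Markers of other neural cells were found in every library too, summing to 1091 to 3127 CPM for 6 oligodendrocyte precursor markers. The 6 astrocyte markers summed to 940 to 2790 CPM and the 12 neuron markers to 261 to 1321 CPM. The precursor list includes Pdgfra, which some groups overexpressed. The markers of microglia and macrophages (6.63 to 11.9 CPM), of endothelial cells and pericytes (1.58 to 17.6 CPM), of fibroblasts (0.517 to 24.2 CPM) and of red blood cells (0.103 to 0.780 CPM) were near the floor throughout. Library 4 of K27M-AP stood apart: its 4 dividing-cell markers summed to 62.7 CPM against 1868 to 2381 in the other K27M-AP libraries, and its 5 mature oligodendrocyte markers to 1787 CPM against 87.9 to 423. Library 5 of EV ctl had 178 CPM of dividing-cell markers against 1147 in the other EV ctl library. Trp53 stood at 40.9 to 51.6 CPM in the 5 vector libraries and at 7.14 to 27.7 CPM in the others, except for 49.4 CPM in the library labelled K27M-AP T 4. Atrx in the library labelled WT-AP 1 stood at 262 CPM, within the vector range of 184 to 300 CPM, against 111 to 158 CPM in the other WT-AP libraries. An edit of the gene need not remove its RNA, so Trp53 counts check that label only in part. For 9 sample titles the variant calls listed in the description bore another name than the title. Whether any label is wrong was not tested.

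The alpha row was the only one of the 24 clustered protocadherins that edgeR called higher, and its levels are given by background. Its level was 10.2 and 6.51 CPM in EV ctl and 9.99, 10.3 and 6.03 CPM in EV-PDGFRA. In WT-AP it was 52.5, 40.0, 39.9 and 25.3 CPM, and in K27M-AP 32.8, 27.2, 30.3 and 22.6 CPM. The K27M-APP libraries had 28.6 and 31.9 CPM. All 10 of these preneoplastic libraries, labelled with Trp53 loss, a delivered H3.3 and the Atrx hairpin, lay above all 5 vector libraries. The share of all genes that did so was not counted. In single comparisons 10.2% (WT-AP against EV ctl) and 24.8% (K27M-APP against EV-PDGFRA) of all genes lay wholly higher. Among tumours the level was 41.0, 43.8 and 76.7 CPM in K27M-AP T, and 33.5, 30.5, 36.4 and 52.9 CPM in K27M-APP T. The K27M-P T library, without the Atrx hairpin, had 18.9 CPM, the lowest of the tumours and still above the vector maximum of 10.3 CPM. Over all libraries outside the vector groups the range was 18.9 to 76.7 CPM (mean 36.9 ± 13.6, SD, n = 18), against 6.03 to 10.3 CPM (8.61 ± 2.14, SD, n = 5). For this wider split the share of all genes was not counted either, so both splits only describe a row already called in these libraries.

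**Figure D1:**
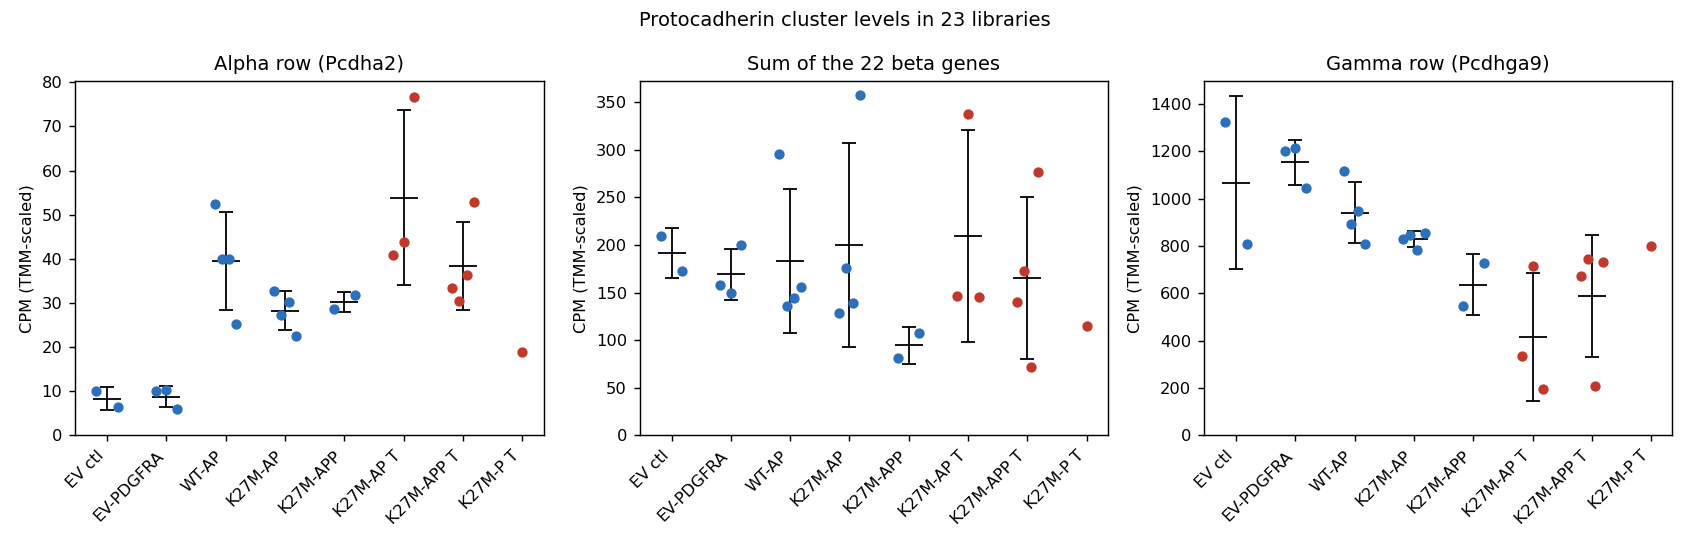
CPM of the alpha row, the sum of the 22 beta genes and the gamma row in each library (points, blue preneoplastic and red tumour), with the group mean and SD as black bars where a group has more than 1 library. The alpha row lies at or below 10.3 CPM in the 5 vector libraries and at or above 18.9 CPM in the other 18. The share of all genes split in this way was not counted.

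In WT-AP against EV ctl, the comparison that asks what wild-type H3.3, Trp53 loss and the Atrx hairpin do together, the alpha row rose 4.76-fold (log2 fold change 2.25, SE 0.33, edgeR adjusted p = 0.00979). It was 1 of 23 members tested that was called, where 0.312% of all genes were called and 0.0842% were called higher. The groups did not overlap, where 10.2% of all genes lay wholly higher. The call was lost without library 5 of EV ctl (log2 fold change 1.96, adjusted p = 0.156, edgeR), in a fit of the compared groups alone (adjusted p = 0.124), and among libraries of the later table alone (log2 fold change 1.98, adjusted p = 0.992). Over the 14 alternatives the log2 fold change was 1.85 to 2.61 and the adjusted p from edgeR or DESeq2 was 1.79e-09 to 0.992. Both EV ctl libraries first appear in the later table, and the 3 delivered changes cannot be told apart here. Without WT-AP library 1, whose Atrx level lay in the vector range, the log2 fold change was 2.08 and the edgeR adjusted p was 0.0224.

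K27M-APP against EV-PDGFRA uses other libraries and asks what mutant H3.3, Trp53 loss and the Atrx hairpin do together where Pdgfra is overexpressed in both groups. The alpha row rose 3.44-fold (log2 fold change 1.78, SE 0.31, edgeR adjusted p = 0.0138), again as 1 of 23 members called, where 1.94% of all genes were called and 0.906% were called higher. Its groups did not overlap, where 24.8% of all genes lay wholly higher. The call was lost when EV-PDGFRA library 3 (edgeR adjusted p = 0.0533), K27M-APP library 1 (0.103) or K27M-APP library 2 (0.144) was left out, with a log2 fold change of 1.57 to 1.86. Over the 13 alternatives it was 1.57 to 1.91, with an adjusted p from edgeR or DESeq2 of 1.13e-05 to 0.144. Among libraries of the earlier table alone it was 1.58 with an edgeR adjusted p of 0.0124. In this comparison no beta or gamma member was called in either direction.

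Nothing else moved the alpha row past the threshold. In EV-PDGFRA against EV ctl the log2 fold change was 0.11 (SE 0.32, edgeR adjusted p = 0.946), where 0% of genes were called, and its sign changed under several alternatives. In K27M-AP against WT-AP it was -0.48 (SE 0.24, edgeR adjusted p = 1.00), where 0.0297% of genes were called. Adding Pdgfra to K27M-AP gave 0.12 (SE 0.30, edgeR adjusted p = 0.883). The K27M-AP tumours lay above every K27M-AP preneoplastic library, where 5.76% of all genes did, but the log2 fold change of 0.91 (SE 0.25, edgeR adjusted p = 0.196) was not called, and it was 0.57 without the library labelled K27M-AP T 4. In K27M-APP T against K27M-APP it was 0.33 (SE 0.29) and in K27M-APP T against K27M-AP T -0.47 (SE 0.25), neither called by edgeR. The interaction terms gave 0.01 (SE 0.43) for the Pdgfra effect in the mutant against the vector background, and -0.59 (SE 0.38) for the tumour effect with against without Pdgfra. The antisense genes Gm10545 and Gm10544, which the counting may not separate from the alpha array if it ignored strand, stood at 0.0787 to 2.18 CPM and 0.0525 to 0.949 CPM.

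The gamma row was by far the deepest counted member and lay lowest in some tumours. It stood at 1325 and 809 CPM in EV ctl, 1200 to 1215 CPM in EV-PDGFRA libraries 1 and 2, and 1045 CPM in EV-PDGFRA library 3. In WT-AP it was 1115, 893, 948 and 809 CPM, in K27M-AP 828, 847, 782 and 856 CPM, and in K27M-APP 546 and 727 CPM. The 3 K27M-AP T libraries had 337, 715 and 195 CPM, all below the 4 K27M-AP libraries, where 4.17% of all genes lay wholly below. The K27M-APP T libraries had 673, 744, 207 and 734 CPM, and the K27M-P T library had 799 CPM. The 3 lowest values of the series, 195, 207 and 337 CPM, were all from tumours, while the other 5 tumours lay between 673 and 799 CPM.

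No gamma difference passed the threshold. K27M-APP lay below EV-PDGFRA with a log2 fold change of -0.86 (SE 0.22, edgeR adjusted p = 0.0629), and the groups did not overlap, where 24.7% of all genes lay wholly lower. It was called lower in 4 of 13 alternatives, which were DESeq2 (adjusted p = 0.00692), the compared groups alone (edgeR adjusted p = 0.0287), the earlier table alone (0.0480) and the replicate number as a block (0.0349). The shares of all genes called lower in these were 3.6%, 7.12%, 2.03% and 1.7%. In K27M-AP T against K27M-AP the log2 fold change was -1.01 (SE 0.46, edgeR adjusted p = 0.401), and it was -0.67 without K27M-AP T 4. In K27M-APP T against K27M-APP it was -0.13 (SE 0.50), with K27M-APP T 3 far below the other 3 libraries. The 12 neuron markers were also low in 2 of the 3 lowest libraries, at 261 CPM in K27M-APP T 3 and 553 CPM in K27M-AP T 4. They stood at 648 to 1321 CPM elsewhere, with 720 CPM in the third, K27M-AP T 1. The 8 neural progenitor markers were highest in K27M-AP T 4 (11217 CPM) and K27M-APP T 3 (7883 CPM), and stood at 5346 CPM in K27M-AP T 1. The part of either list in the gamma levels was not tested.

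The beta genes differed in level within the array, and the same gene led it in every preneoplastic library. CPM per kilobase of exon adjust for the exon length in M21, such as 3559 bases in Pcdhb20 and 7138 in Pcdhb19. The annotation used for counting is not known, so the order of genes on this scale rests on those lengths. Values were highest for Pcdhb20 (4.26 ± 1.79, SD, n = 23), followed by Pcdhb19 (3.35 ± 1.52), Pcdhb17 (3.04 ± 1.27), Pcdhb5 (2.91 ± 2.68) and Pcdhb16 (2.82 ± 1.36). Each of these neighbours in the order differed by less than 1 SD over libraries. The lowest was Pcdhb1, at the start of the array, with 0.0520 ± 0.108. The level per kilobase rose along the array with a Spearman correlation of 0.596 over the 22 genes, or 0.535 without Pcdhb1, as a description across genes that share the libraries.

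**Figure D2:**
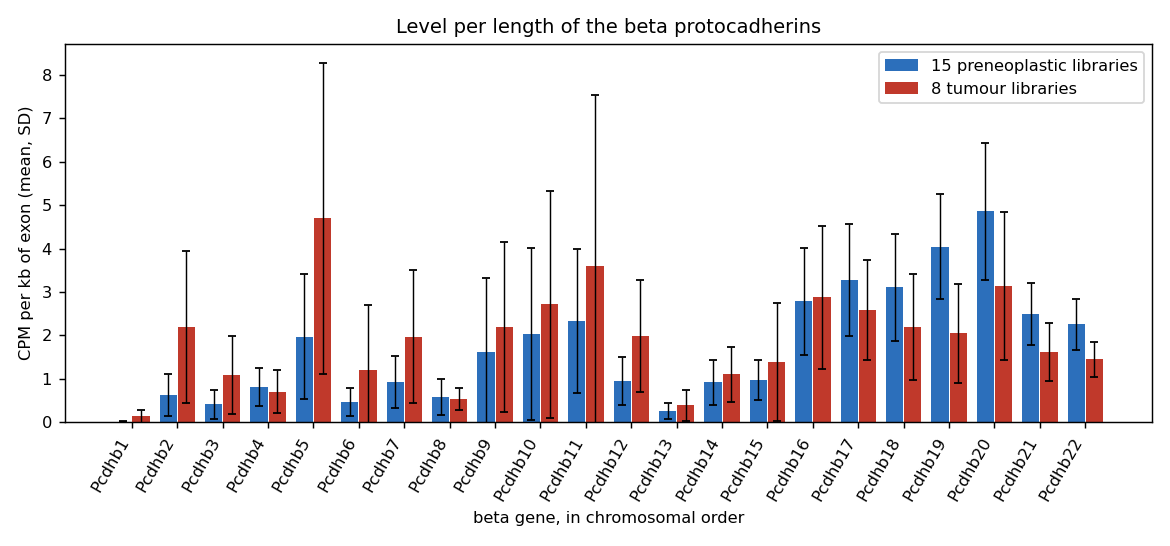
Mean CPM per kilobase of exon of each beta gene in chromosomal order, in 15 preneoplastic (blue) and 8 tumour (red) libraries, with SD over libraries as error bars, of which the part below 0 is not drawn. Pcdhb20 is highest in the preneoplastic libraries (4.86) and Pcdhb5 in the tumours (4.69).

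Pcdhb20 led the array per kilobase in 15 of 15 preneoplastic libraries, whatever the genotype, and in 0 of 8 tumours. Second place was less steady, with Pcdhb19 in 11 of the 15 and 4 other genes in the rest. Its share of the summed beta level per kilobase was 9.94% at the lowest, 13.7% at the median and 17.4% at the highest of the preneoplastic libraries. The K27M-AP T tumours had 6.85%, 8.12% and 7.61%, the K27M-APP T tumours 8.51%, 3.68%, 11.3% and 6.25%, and the K27M-P T tumour 12.1%. The ranges overlap, since 4 preneoplastic libraries of WT-AP and K27M-AP and the tumours K27M-APP T 3 and K27M-P T 1 lie between 9.94% and 12.1%. Within the matched genotypes every K27M-AP T library lay below the 4 K27M-AP libraries (10.2% to 13.9%). Every K27M-APP T library lay below the 2 K27M-APP libraries (13.7% and 13.9%). How many other beta genes had such shares was not counted, and Pcdhb20 was chosen as the gene with the highest level per kilobase. A share also depends on the other genes, such as Pcdhb11 with 27.8% in K27M-APP T 2. By raw counts, which favour longer genes, Pcdhb19 led in 15 of 15 preneoplastic libraries, and 6 different genes led among the 8 tumours.

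Pcdhb5 took the lead in 5 of 8 tumours. Its share per kilobase was 2.51% to 7.30% in the preneoplastic libraries (median 4.68%), where it ranked between the sixth and the thirteenth of the 22 genes. The K27M-AP T tumours had 16.8%, 13.7% and 13.1%, and K27M-APP T 1 and 4 had 15.5% and 10.3%. In the other tumours it was 2.79% (K27M-APP T 2), 7.63% (K27M-APP T 3) and 5.17% (K27M-P T 1). These 3 tumours were led by Pcdhb11 with 27.8%, Pcdhb18 with 13.9% and Pcdhb16 with 15.1%, so 4 different genes led per kilobase among the 8 tumours. The shares are descriptions, with no test.

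Tumour libraries differed in which beta genes stood furthest from the preneoplastic median. The genes named here are the extremes of their library, and such extremes were not read for the preneoplastic libraries. Those diverged too, such as K27M-AP 4 with Pcdhb9 at 21.1 CPM, where the next K27M-AP library had 3.59 CPM. In K27M-APP T 2 Pcdhb11 stood at 49.1 CPM, 6.30 times the preneoplastic median of 7.79 CPM, while Pcdhb20 stood at 5.25 CPM against 18.2. In K27M-AP T 2 Pcdhb6 stood at 18.1 CPM, 13.7 times its preneoplastic median of 1.32 CPM. In K27M-APP T 4 Pcdhb2 stood at 12.7 CPM, 7.97 times its median of 1.59 CPM. In K27M-APP T 3 Pcdhb19 stood at 3.02 CPM, 9.45-fold below its median of 28.5 CPM, and 5 of the 20 genes with a median of at least 1 CPM lay above their own median. The tumours K27M-AP T 2 and K27M-APP T 4 had 16 and 17 of the 20 above, whereas K27M-P T 1 had 4. The effective number of beta genes, the inverse of the summed squared shares per kilobase, was 10.4 to 15.5 in the preneoplastic libraries (median 12.97) and 9.02 to 16.3 in the tumours (median 13.8), so the ranges overlap.

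**Figure D3:**
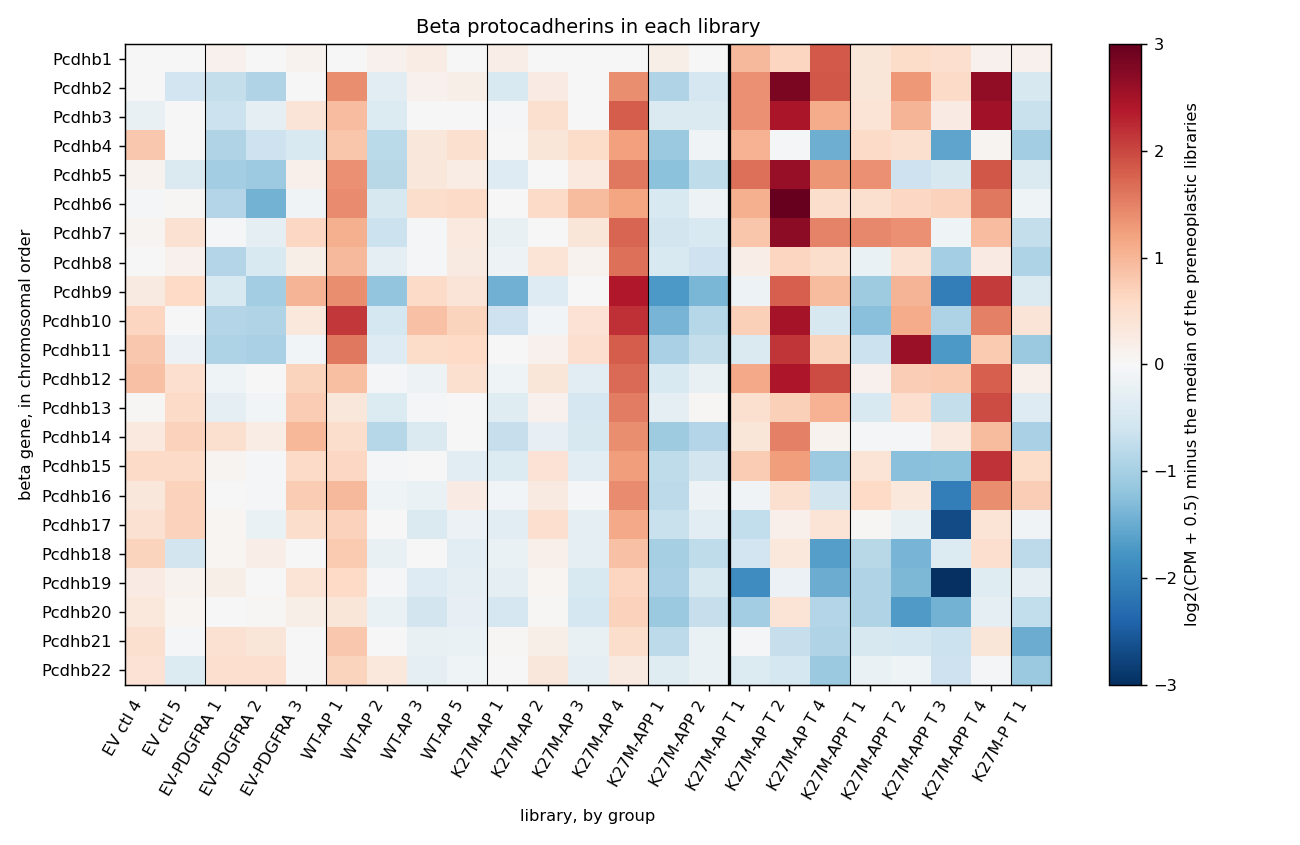
Level of each beta gene (rows, in chromosomal order) in each library (columns, by group, thick line between preneoplastic and tumour), as log2(CPM + 0.5) minus the median of the 15 preneoplastic libraries, with the scale limited to 3 in either direction. K27M-AP 4 and WT-AP 1 are high for nearly the whole array. The tumour libraries differ in which genes are high, such as Pcdhb11 in K27M-APP T 2 (49.1 CPM).

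Replicates differed more in the beta genes than in the typical gene. The SD between libraries of log2(CPM + 0.5) had a median over the beta genes of 1.02 in K27M-APP T. Over the 21909 genes that passed the filter on low counts it was 0.319. The beta median was 0.780 against 0.323 in K27M-AP, 0.744 against 0.324 in K27M-AP T, and 0.542 against 0.242 in WT-AP. In EV ctl, with 2 libraries, it was 0.261 against 0.262. Neighbouring beta genes also varied together: the correlation over the 23 libraries had a median of 0.772 for the 20 adjacent pairs and 0.451 for the 190 other pairs, leaving out Pcdhb1. Adjacent genes can share sequence and all values share libraries, so this is a description only.

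Not one beta gene was called in any of the 8 comparisons of groups or the 2 interaction terms by edgeR at an adjusted p below 0.05. At an unadjusted p below 0.05, edgeR gave 12 of 21 in K27M-APP against K27M-AP, where 5.94% of all genes passed, and 5 of 21 in K27M-APP against EV-PDGFRA, where 15.5% did. It gave 5 of 22 in K27M-AP T against K27M-AP (12.2% of all genes) and 4 of 22 in K27M-APP T against K27M-APP (3.33%). EV-PDGFRA against EV ctl (7.03%) and K27M-APP T against K27M-AP T (2.67%) gave 1 each. WT-AP against EV ctl (10%), K27M-AP against WT-AP (3.95%), the Pdgfra interaction (2.45%) and the tumour interaction (3.55%) gave 0. Pcdhb1 was left out of the preneoplastic fit by the filter on low counts, so 21 beta genes were tested there. It entered the fit with tumours only through tumours in which it was high, so its values there support nothing. Without it, 4 of 21 genes passed in K27M-AP T against K27M-AP. DESeq2 called Pcdhb1 alone among the beta genes, in that comparison, where it called 2.06% of all genes higher. Pcdhb1 was at or near 0 counts in K27M-AP, so that call is not read as a result.

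Adding Pdgfra to the mutant background went with lower values across the beta array. The beta sum was 80.8 and 108 CPM in K27M-APP and 128, 176, 139 and 358 CPM in K27M-AP. All 21 beta genes had a negative log2 fold change in K27M-APP against K27M-AP, with a median of -1.32, against -0.03 over all genes. The values ran from -2.92 (SE 1.20) for Pcdhb9 to -0.36 (SE 0.32) for Pcdhb22, and the lowest edgeR adjusted p was 0.667. In 16 of 21 the K27M-APP libraries lay wholly below K27M-AP, where 10.2% of all genes did. Library 4 of K27M-AP, which lacked most of the dividing-cell signal, had the highest beta sum of the series. In this comparison the 5 mature oligodendrocyte markers were all negative (median -4.70), as were 5 of 6 astrocyte markers (-1.98) and 10 of 12 neuron markers (-1.27), while the 4 dividing-cell markers were positive. The dividing-cell markers summed to 2234 and 2429 CPM in K27M-APP against 2381, 1868, 1874 and 62.7 CPM in K27M-AP libraries 1 to 4. The mature oligodendrocyte markers summed to 93.9 and 74.7 CPM in K27M-APP against 112, 423, 87.9 and 1787 CPM in K27M-AP libraries 1 to 4. The astrocyte markers summed to 1152 and 1080 CPM against 1033 to 2676 CPM in K27M-AP, and the neuron markers to 857 and 946 CPM against 932 to 1321 CPM. Their part in the beta values was not tested. Without library 4 the beta median was -0.76, with 20 of 21 negative and 0 at an unadjusted p below 0.05. The median was -0.85 among libraries of the earlier table alone, which held both K27M-APP libraries, and -0.86 with the replicate number as a block. Pcdhb20, the leading beta gene, stood at 8.20 and 11.1 CPM in K27M-APP against 12.7, 18.5, 12.5 and 29.8 CPM in K27M-AP, with no overlap (log2 fold change -0.90, SE 0.35, edgeR adjusted p = 0.667).

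The same K27M-APP libraries were low beside EV-PDGFRA. The beta sum there was 158, 150 and 200 CPM. The median log2 fold change over the 21 genes was -0.70, 19 were negative, and 12 lay wholly below EV-PDGFRA, where 24.7% of all genes did. Pcdhb20 stood at 18.2, 18.7 and 20.7 CPM in EV-PDGFRA, above both K27M-APP libraries (log2 fold change -0.99, SE 0.36, edgeR adjusted p = 0.200). Fitted on the compared groups alone, 4 beta genes, Pcdhb14, Pcdhb18, Pcdhb19 and Pcdhb20, and the gamma row were called lower by edgeR, where 7.12% of all genes were. The median was -0.43 without EV-PDGFRA library 3 and in the earlier table alone, with 8 of 21 positive in each. The 6 astrocyte markers were all negative here (median -1.19), as were the 6 oligodendrocyte precursor markers (-0.35). The 4 dividing-cell markers were all positive (0.68). Of 5 mature oligodendrocyte markers 1 was positive (-1.21), and of 12 neuron markers 8 were (0.24). The part of these markers in the beta values was not tested. In EV-PDGFRA against EV ctl the beta median was -0.32, with 5 of 21 positive. Its direction was not stable, at 0.30 with 18 positive under the replicate block, 0.015 in the later table alone and -0.087 with a term for the table. Without EV-PDGFRA 1, 2 or 3 it was -0.13, -0.067 or -0.63. The interaction between both Pdgfra effects had no member called (edgeR, adjusted p of 1.00 for each).

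No beta gene separated the mutant from the wild-type histone. In K27M-AP against WT-AP the median log2 fold change was 0.23, with 17 of 21 positive, and its sign rested on single libraries. It was -0.25 with 0 of 21 positive without K27M-AP 4, 0.39 without K27M-AP 1, 0.57 with 21 positive without WT-AP 1, 0.041 and 0.091 without WT-AP 2 and 3, and -0.11 with the replicate number as a block. The earlier table alone gave -0.44, the later table alone 0.84, and the fit with a term for the table gave 0.12. None of the 21 had groups that did not overlap, where 1.04% of all genes lay wholly above and 0.961% wholly below. Pcdhb20 stood at 23.5, 15.9, 12.4 and 15.4 CPM in WT-AP, overlapping K27M-AP (log2 fold change 0.12, SE 0.27, edgeR adjusted p = 1.00). In WT-AP against EV ctl the beta median was -0.05, with 10 of 21 positive. It was 0.53 with 19 positive under the replicate block, -0.39 with 4 positive without WT-AP 1, -0.26 in the later table alone, 0.21 without EV ctl 4, and 0.031 to 0.10 without another WT-AP library, so no direction can be read from it. Pcdhb20 had a log2 fold change of -0.30 (SE 0.33, edgeR adjusted p = 0.782).

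In tumours against preneoplastic cells of the same genotype, values tended to be higher at the start of the beta array than at its end. Early genes did not all share this. Over all libraries, Pcdhb4 had a mean of 0.806 CPM per kilobase in preneoplastic cells and 0.700 in tumours, and Pcdhb8 0.576 and 0.526. In K27M-AP T against K27M-AP 13 of 22 genes had positive values, with a median of 0.29. Without Pcdhb1 it was 12 of 21, with a median of 0.21. Pcdhb2 stood at 4.94, 14.3 and 7.06 CPM in the tumours and 1.03, 1.98, 1.60 and 4.98 CPM in the preneoplastic cells (log2 fold change 1.86, SE 0.67, edgeR adjusted p = 0.306). Pcdhb22, at the other end, stood at 10.1, 9.30 and 5.93 CPM in the tumours and 13.3, 17.3, 11.0 and 16.4 CPM in the preneoplastic cells, with no overlap (-0.79, SE 0.26, edgeR adjusted p = 0.256). It was 1 of 22 beta genes wholly below, near the 4.17% of all genes, and 0.0245% of all genes were called in this comparison by edgeR. Pcdhb20 had -0.38 (SE 0.46, edgeR adjusted p = 0.771). The median over all 22 genes depended on single libraries. It was 1.14 without K27M-AP 4, 0.083 and 0.075 without K27M-AP 1 and 3, 0.58 without K27M-AP T 1 and -0.39 without K27M-AP T 2. It was 1.20 in the earlier table alone, -0.68 in the later one and 0.63 with the table term.

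Pcdhb1 was nearly silent before tumours formed. Its raw counts were 0 to 4 in the 15 preneoplastic libraries. The K27M-AP T tumours had 22, 14 and 55, the K27M-APP T tumours 6, 16, 8 and 2, and the K27M-P T tumour 2. The 4 K27M-AP libraries had 4, 0, 0 and 0 counts. The gene was tested against them only because its tumour counts passed the filter. The counts are therefore given as a description, and no fold change or test is read from them.

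In K27M-APP T against K27M-APP 20 of 22 beta genes had positive values, with a median of 1.49, against 0.05 over all genes, and no adjusted p fell below 1.00 (edgeR). Without Pcdhb1, 19 of 21 were positive, with a median of 1.42. In 7 of 22 the tumours lay wholly above, where 10.1% of all genes did. Pcdhb2 stood at 2.17, 4.63, 2.60 and 12.7 CPM in the tumours and at 0.625 and 0.967 CPM before (log2 fold change 2.77, SE 0.88), whereas Pcdhb22 had 0.02 (SE 0.29) and Pcdhb20 -0.12 (SE 0.52). Over all 22 genes the median was 0.92 without K27M-APP T 4, with 16 positive, and 0.98 in the earlier table alone. This comparison shares the K27M-APP libraries with those above, so low values in them enter each. Against K27M-AP T, the K27M-APP tumours had a beta median of -0.36 with 5 of 22 positive. Without Pcdhb1 the median was -0.27, with 5 of 21 positive. Over all 22 genes the median was 0.11 with 12 positive without K27M-AP T 2, and -0.050 with 11 positive without K27M-APP T 3. It was -0.92 without K27M-APP T 4. Leaving out K27M-AP T 1 or 4 gave -0.64 or -0.57, the table term -0.66, the earlier table -0.91 and the later one 0.29. Pcdhb20 had -0.65 (SE 0.46, edgeR adjusted p = 1.00).

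Position in the array went with the size of the log2 fold change in most comparisons. The Spearman correlation of gene number with log2 fold change was -0.778 in K27M-AP T against K27M-AP and -0.789 in K27M-APP T against K27M-APP (22 genes each), so values fell from the Pcdhb1 end to the Pcdhb22 end in both. Without Pcdhb1 they were -0.744 and -0.771. These comparisons share no library. Over the alternatives the first was -0.850 to -0.522 and the second -0.861 to -0.677. In K27M-APP against K27M-AP it was 0.773 over 21 genes, and 0.456 among libraries of the earlier table alone. It was 0.644 in K27M-APP T against K27M-AP T (0.591 without Pcdhb1), -0.551 in WT-AP against EV ctl and -0.531 in K27M-APP against EV-PDGFRA. In EV-PDGFRA against EV ctl it was 0.551 (-0.314 in the later table alone), in K27M-AP against WT-AP -0.296 (-0.581 to 0.316 over the alternatives), and 0.266 and 0.0514 in the Pdgfra and tumour interactions. A gradient was therefore not particular to the tumour comparisons, several of which share libraries with the others. Level per kilobase also rises along the array, and the genes share libraries and sequence, so the correlations are descriptions with no p.

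**Figure D4:**
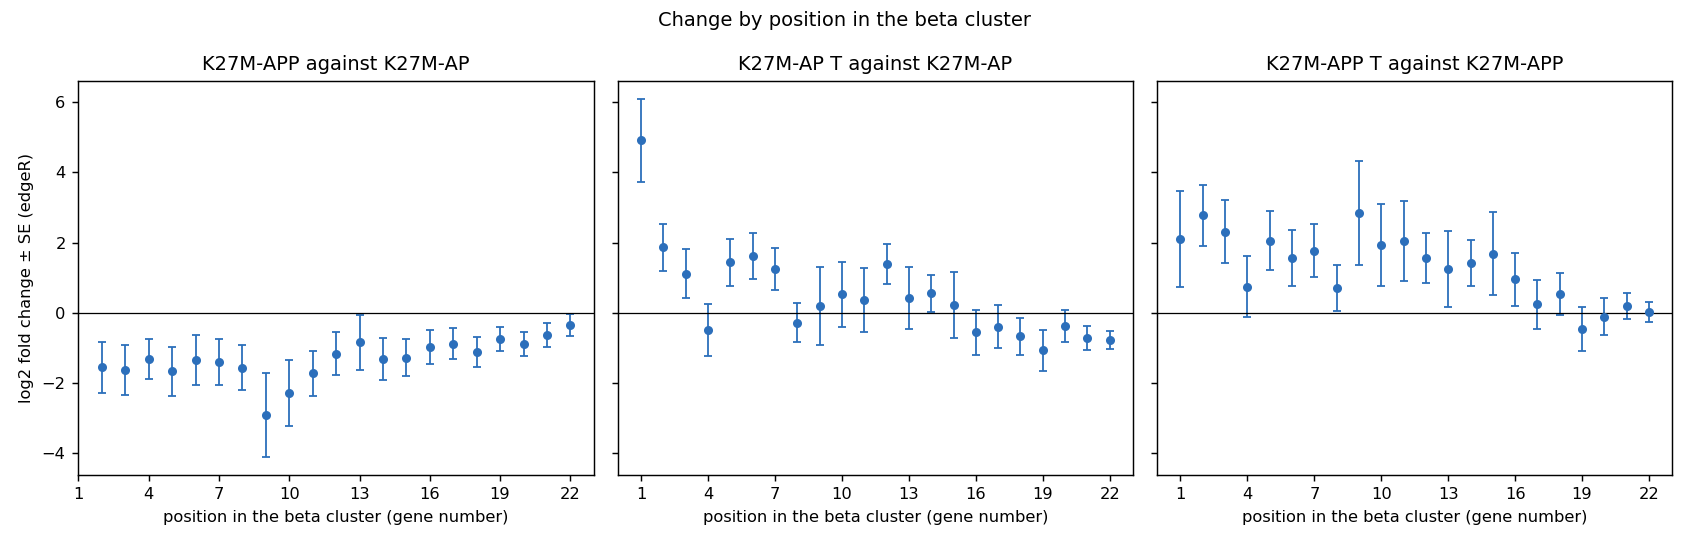
edgeR log2 fold change of each beta gene with its SE (bars), by gene number along the array, in K27M-APP against K27M-AP, K27M-AP T against K27M-AP and K27M-APP T against K27M-APP. In both tumour panels Pcdhb2 (1.86 and 2.77) lies above Pcdhb22 (-0.79 and 0.02), genes chosen after their values were seen. In the first panel all 21 genes lie below 0.

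Genes that act with the arrays were read from lists. Of 24 factors for promoter choice and silencing, among them Ctcf, the cohesin subunit Rad21, Smchd1 and the DNA methyltransferase Dnmt3b, 0 were called in any comparison by edgeR, which called 0% to 1.94% of all genes. Their median log2 fold change was 0.25 in WT-AP against EV ctl and 0.28 in K27M-APP against EV-PDGFRA, where 22 and 23 of 24 were positive, against 49.8% and 48.8% of all genes with medians of -0.0020 and -0.014. Of these factors, 8 were positive in K27M-AP T against K27M-AP and 3 in K27M-APP T against K27M-APP. In every remaining comparison of groups 17 were positive. Of 24 processing and signalling partners, among them the protease Adam10, 0 were called. Of 12 non-clustered protocadherins tested, 1, Pcdh20, rose in K27M-APP against EV-PDGFRA (log2 fold change 2.88, SE 0.50, edgeR adjusted p = 0.0138), from 0.585, 0.551 and 0.413 CPM to 3.51 and 4.14 CPM. Of 14 genes beside the arrays, 1, Taf7, a subunit of the general transcription factor TFIID that lies between the beta and gamma arrays, rose in the same comparison (1.38, SE 0.31, edgeR adjusted p = 0.0411), from 7.31, 7.89 and 6.65 CPM to 20.2 and 17.7 CPM. In that comparison 0.906% of all genes were called higher. Neither was called in another comparison by edgeR.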

How the data were processed

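Values are the deposited raw read counts for each gene, in a pair of tables that the authors did not normalize. The submitters' processing notes list the mm10 build and featureCounts 1.4.4, STAR 2.3.0e, Trimmomatic 0.32, Picard, GATK and SAMtools 0.1.19; the annotation, the strand setting and the handling of reads with several matches are not given in the sources used here. The 12 libraries in both tables had identical values, and 8 columns were not used. Of the 23 libraries, 13 first appear in the earlier table and 10 in the later one; no label calls the tables batches.

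Counts were analysed with edgeR 4.0.16 in R 4.3.3: TMM scaling, filterByExpr (minimum count 10, minimum total 15), and a quasi-likelihood F-test with Benjamini-Hochberg adjustment over all genes, called below 0.05. One fit held the 15 preneoplastic libraries (20197 genes, 10 residual degrees of freedom), the other 13 libraries, those of both K27M preneoplastic groups and the matching tumour groups (20373 genes, 9 residual degrees of freedom). The code was tested on simulated data. Exon lengths and positions are from GENCODE M21. Levels per length used an exon union, and log2 levels an offset of 0.5 CPM. Alternatives were DESeq2 1.42.0 as size factors and as test, no filter, a replicate block, all 23 libraries or only the compared groups in the fit, a term for the table, each table alone, and leaving out each library. The members, lists and rule for names (members called, the top member per kilobase, the leader in each library, and called list genes) were chosen with earlier results of these data known. Other beta genes given, such as Pcdhb1, Pcdhb2, Pcdhb9 and Pcdhb22, were chosen after their values were seen.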

Additional observations from a re-analysis of the deposited data

Results flagged for a closer look

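Of 75 sets of a gene, or the beta sum, in a group of 4 libraries, 11 had a library whose gap to its nearest neighbour took up most of the group's range (Dixon's test at 95%). Chance gives about 1 set in 20, and sets of neighbouring genes are not independent.

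Library 4 of K27M-AP was highest for Pcdhb3 (5.63 CPM), Pcdhb9 (21.1 CPM), Pcdhb11 (28.5 CPM), Pcdhb14 (19.2 CPM) and Pcdhb16 (31.7 CPM), where the next library had 1.93, 3.59, 11.3, 5.76 and 14.1 CPM. The same library had 62.7 CPM of dividing-cell markers and 1787 CPM of mature oligodendrocyte markers, and their part in the beta levels was not tested. Library 1 of WT-AP was highest for Pcdhb21 (19.002 CPM) and for the beta sum (295 CPM, next 155 CPM), with 609 CPM of mature oligodendrocyte markers against 125 to 335 CPM in the other WT-AP libraries. Library 4 of K27M-APP T was highest for Pcdhb6 (4.92 CPM) and Pcdhb21 (13.9 CPM). Library 3 of K27M-APP T was lowest for the gamma row Pcdhga9 (207 CPM, next 673 CPM). Pcdhb1 in K27M-AP 1 (0.0732 CPM) was set apart only because the other 3 libraries had 0 counts.

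The single K27M-P T library entered no comparison, and its alpha row Pcdha2 stood at 18.9 CPM, above the vector maximum of 10.3 CPM.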

How the results depend on the processing

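The number of members called in WT-AP against EV ctl was 1, and 0 in the later table alone, in a fit of just these groups, and without EV ctl replicate 5; leaving out 1 library gave 0 to 1. In K27M-APP against EV-PDGFRA it was 1, and 2 with DESeq2 as the test, with the replicate block and in the earlier table alone, 6 when just these groups were fitted, and 0 to 1 when 1 library was left out. In K27M-AP T against K27M-AP it was 0, and 1 with DESeq2 (Pcdhb1, whose call is not read as a result). The cause was not tested. In the other 7 comparisons and interactions the count stayed at 0 under every alternative run. Signs changed for uncalled values: Pcdhga9 in WT-AP against EV ctl was 0.23 without EV ctl 4 and -0.49 without EV ctl 5. Pcdha2 in EV-PDGFRA against EV ctl was -0.50 with the replicate block, -0.22 with the table term, -0.46 in the later table, -0.21 without EV ctl 5 (0.46 without EV ctl 4), and -0.030 and -0.023 without EV-PDGFRA 1 and 2. Pcdha2 in K27M-APP against K27M-AP was -0.056 with the block and -0.11 with the table term. Pcdhga9 in K27M-APP T against K27M-APP was 0.14 with the block, with the table term and in the earlier table, 0.078 without K27M-APP 2 (-0.32 without K27M-APP 1) and 0.15 without K27M-APP T 3. Same-numbered libraries did not deviate together in every pair (K27M-AP against WT-AP -0.388, 0.552 and 0.709), so the numbers were not taken as pairing. Groups of 2 to 4 libraries limit what could be called.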
